A study of Mus musculus with 12 samples.

Results

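The genes described here are 59 regulators of chromatin, chosen by symbol: the core subunits of both Polycomb repressive complexes, the HP1 proteins, subunits of the SWI/SNF remodelling complex, and enzymes that write or erase methyl and acetyl groups on histones and DNA. All 59 were found among the 18908 genes listed in both expression tables, and all 59 passed the filter on low counts in every comparison. The RNA came from cultured mesenchymal stem cells (MSCs) of mouse bone marrow, which are plastic-adherent stromal cells able to form bone, fat and cartilage. The 12 libraries fall into 3 groups. Young vehicle has 3 libraries (replicates 2, 4 and 5), old vehicle has 6 (replicates 1, 2, 3, 5, 8 and 9), and old melatonin has 3 (replicates 1, 3 and 5, given 1 µM melatonin for 24 h). The age table sets young vehicle against old vehicle 2, 8 and 9, and the melatonin table sets old melatonin against old vehicle 1, 3 and 5. All cells were grown in DMEM with 10% FBS. The labels give old and young without an age in months, and they name no strain, sex or passage. They do not say whether the libraries of a group came from separate animals or cultures, so the p-values measure only the spread between these libraries. The study's title concerns chromatin remodelling in senescent MSCs given melatonin, and the question here is how the RNA levels of the chromatin machinery differed with the labelled age and treatment.

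Polycomb repressive complex 2 (PRC2) methylates lysine 27 of histone H3, and Polycomb repressive complex 1 (PRC1) reads that mark through its CBX subunits and ubiquitinates histone H2A. Together they hold developmental genes and the Cdkn2a senescence locus silent. SWI/SNF uses ATP to slide and evict nucleosomes, and in many settings it opposes Polycomb. MLL and SETD1 enzymes mark active promoters and enhancers on lysine 4 of histone H3, while the SUV39H, SETDB1 and EHMT enzymes and the HP1 proteins build repressed chromatin on lysine 9. DNA methyltransferases and TET dioxygenases add and oxidise cytosine methylation. In MSCs, several of these regulators are known to steer the choice between bone and fat.

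Some properties of the libraries bear on every result below. Each library of the age table had 1 closest counterpart in the melatonin table, and each pair was best in both directions. Young vehicle 2, 4 and 5 paired with melatonin-labelled 1, 3 and 5, and old vehicle 2, 8 and 9 paired with old vehicle 1, 3 and 5, at r of 0.977 to 0.997 over 11895 genes. Between libraries of the same group within a table, r was 0.831 to 0.932. Over the 59 genes the median absolute log2 difference was 0.05 to 0.15 within the 6 pairs and 0.20 to 0.39 within groups. The paired libraries still differed by more than counting error, with a median chi-square of 1.77 to 6.02 times its expectation, so they were kept as separate libraries. Whether paired libraries share a culture was not tested, and the age and melatonin comparisons are not independent of each other. A macrophage list of 20 genes, all present in the tables, also set libraries apart. Its mean log2 CPM (counts scaled to library size) was 9 to 9.24 in old vehicle 3, 5, 8 and 9, 4.70 and 4.80 in old vehicle 2 and 1, and 1.09 to 4.73 in the 6 young and melatonin-labelled libraries. Summed, it was at 81.2 to 998 CPM in young, 1150 to 24400 CPM in old vehicle and 133 to 1050 CPM in melatonin-labelled libraries, and no gene of the list was at 0 throughout a group. An adipocyte list of 7 genes summed to 184 to 996 CPM in old vehicle and 72 to 103 CPM in the other groups, with Cidec at 0 in young and Plin1 at 0 in melatonin-labelled libraries. An osteoblast list of 8 genes had a mean log2 CPM of 2.93 and 3.15 in old vehicle 2 and 1. It was 1.21 to 2.16 in old vehicle 3, 5, 8 and 9, and -0.11 to 0.80 in the other groups. Old vehicle 2 and 1 are the only old vehicle libraries left in the later fits without old vehicle 3, 5, 8 and 9. Stromal markers were present throughout, with 13 of 15 above 1 CPM in every old vehicle library and 14 of 15 in every library of the other groups. Their sum was lower in old vehicle, at 7120 to 17200 CPM, against 13200 to 54600 CPM in young and 13000 to 53000 CPM in melatonin-labelled libraries, and its part in the results was not tested. The neutrophil, lymphoid and erythroid lists summed to at most 7.21 CPM in a library. An endothelial list of 6 genes summed to 5.5 to 48.7 CPM in young and 6.98 to 27.7 CPM in old vehicle libraries. In melatonin-labelled libraries it summed to 5.79 to 62.2 CPM, with Kdr alone at 60.2 CPM in melatonin-labelled 1. Totals were 20595378 to 21309663 counts per library.

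Most chromatin regulators were slightly lower in old than in young vehicle libraries, and slightly higher in melatonin-labelled than in old vehicle libraries, but no single gene passed the test across all genes. In the age comparison edgeR's quasi-likelihood test called 0 of the 59 genes at an adjusted p under 0.05, where it called 0% of all 13547 genes tested, and the smallest adjusted p among the 59 was 0.315. DESeq2 called 863 genes in this comparison and none of the 59. The log2 difference was below 0 for 53 of the 59 (89.8%), against 52.3% of all genes, with a median of -0.30 against -0.02. Only a few of these differences were large beside their error: 7 genes (11.9%) were lower at an unadjusted p under 0.05, against 4.95% of all genes, and none was higher at that level, against 8.81%. In 13 genes (22%) every old library lay below every young library, against 9.46% of all genes, and in none did every old library lie above, against 8.89%. Tet1 is counted in both the 7 and the 13, although it passed the filter only through the young libraries.

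In the melatonin table the counts ran the other way. The same test called 0 of the 59 genes, where it called 0% of 13471 genes tested, with a smallest adjusted p of 0.286, and DESeq2 called 895 genes but none of the 59. The log2 difference, melatonin-labelled minus old vehicle, was above 0 for 46 of 59 (78%), against 51.7% of all genes, and below 0 for 13 (22%), against 48.3%, with a median of 0.25 against 0.02. At an unadjusted p under 0.05, 9 genes (15.3%) were higher, against 4.76% of all genes, and none was lower, against 9.45%. In 16 genes (27.1%) every melatonin-labelled library lay above every old vehicle library, against 10% of all genes. Tet1 is counted in both the 9 and the 16, although it passed the filter only through the melatonin-labelled libraries. Without the macrophage-rich libraries (old vehicle 8 and 9 for age, 3 and 5 for melatonin), which leaves 1 old vehicle library per table, 55 of 59 genes were lower in old and 52 higher in melatonin-labelled libraries, with medians of -0.27 and 0.27. Over all genes the medians were -0.06 and 0.06, and 56% of all genes were lower in old libraries. In the melatonin fit 44.3% of all genes were lower in melatonin-labelled libraries, against 7 of the 59. In those smaller fits 0 of the 59 genes had an unadjusted p under 0.05, and the share of all genes at that level, in either direction, was 1.89% for age and 2.02% for melatonin, against 13.8% and 14.2% with all libraries. Once the macrophage mean entered the fit as a covariate, the medians were -0.19 and 0.21, against -0.03 and 0.04 over all genes. In the covariate fits 0 and 1 (Tet3) of the 59 genes had an unadjusted p under 0.05, against 2.11% and 1.89% of all genes. Leaving out old vehicle 8 or 9 alone took the age count from 7 to 1 in each case, with 7.65% and 6.93% of all genes at that level. It was 3 without young vehicle 5 (9.1% of all genes) and 4 without young vehicle 4 (11.3%). The melatonin count went from 9 to 0 without old vehicle 3 or 5 (8.21% and 7.38% of all genes), and to 3 without melatonin-labelled 5 (9.44%). In bulk RNA, fewer cells of a type and less RNA per cell cannot be told apart. In the age table the macrophage mean was 4.70 to 9.15 in old and 1.09 to 4.73 in young libraries. In the melatonin table it was 4.80 to 9.24 in old vehicle and 1.85 to 4.53 in melatonin-labelled libraries. Macrophage level and group were thus nearly tied, and the covariate fit cannot tell them apart. The part of macrophage RNA in these differences was not tested.

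**Figure D1:**
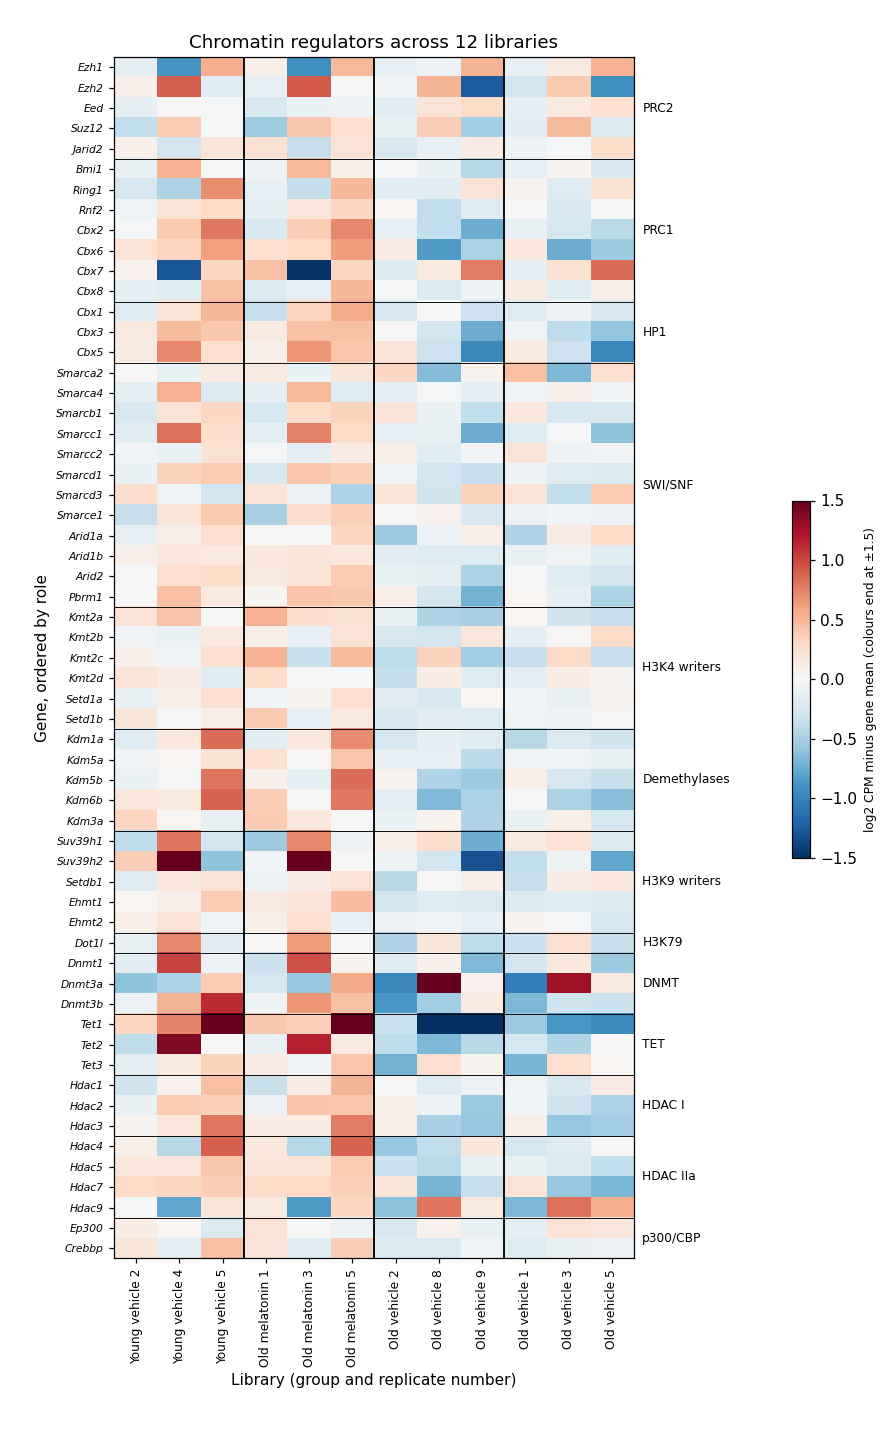
Levels of the 59 chromatin regulators in 12 libraries, as log2 CPM minus the mean of each gene, with genes grouped by role and libraries ordered so that young and melatonin-labelled stand beside each other. Columns with the same position in the young and melatonin-labelled blocks look alike, and old vehicle 9 and 5 are each the lowest library of their table for 24 genes.

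**Figure D2:**
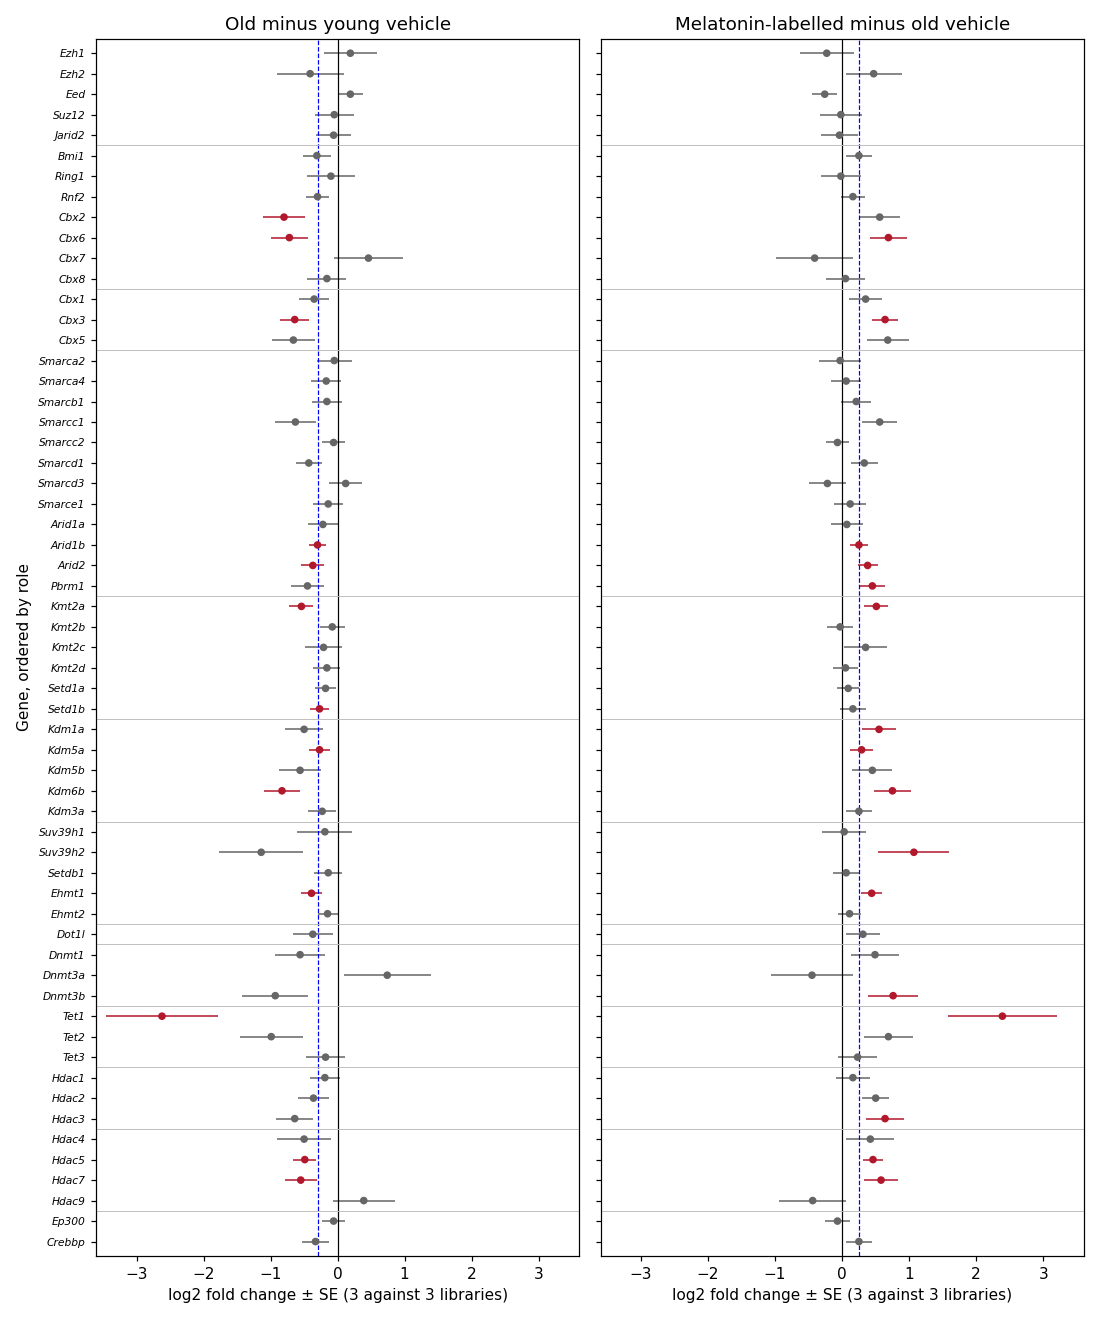
Log2 fold change with its standard error for each of the 59 genes, old minus young vehicle on the left and melatonin-labelled minus old vehicle on the right, 3 against 3 libraries. Red marks genes whose groups do not overlap, the dashed line is the median of the 59 genes (-0.30 and 0.25), and most points lie left of 0 on the left and right of 0 on the right.

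Levels are given below in CPM for each library in a fixed order: young vehicle 2, 4 and 5; old vehicle 2, 8 and 9 (the age table); old vehicle 1, 3 and 5 (the melatonin table); melatonin-labelled 1, 3 and 5. Differences are log2 fold changes ± SE from edgeR, with 3 libraries on each side, and an adjusted p is over all genes tested. Genes outside the naming rule are named to account for the whole list, after their values were seen.

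The 5 PRC2 genes showed no shared shift, with a median log2 difference of -0.05 for age and -0.04 for melatonin, but the 2 catalytic subunits ran opposite to each other across libraries. Ezh2, the methyltransferase of dividing cells, was at 24.9, 44.4 and 20.8 CPM in the young libraries, 22.9, 33.6 and 9.97 in the old libraries of the age table, 19.3, 30.9 and 12.5 in those of the melatonin table, and 21.6, 44.7 and 23.4 in the melatonin-labelled libraries. Young vehicle 4 and melatonin-labelled 3 were the highest, old vehicle 9 and 5 the lowest, and the groups overlapped. Old minus young was -0.41 ± 0.50 (adjusted p = 0.727), and melatonin-labelled minus old vehicle was 0.47 ± 0.42 (adjusted p = 0.619). Ezh1, the paralogue that persists in resting cells, was lowest where Ezh2 was highest, at 33.7, 20.2 and 54.3 CPM in young, 34.2, 35.1 and 52.9 and then 34.3, 40.8 and 53.4 in old vehicle, and 39.5, 19.7 and 52.0 in melatonin-labelled libraries. Its differences were 0.19 ± 0.40 and -0.23 ± 0.40, and both changed sign without the macrophage-rich libraries, to -0.08 and 0.10. Suz12, the scaffold of PRC2, was at 33.1, 56.0 and 42.7 CPM in young and 39.9, 55.2 and 30.2 in old libraries, a difference of -0.05 ± 0.29. For melatonin, Suz12 was at 38.5, 59.6 and 37.2 CPM in old vehicle and 29.5, 56.8 and 51.0 in melatonin-labelled libraries, a difference of -0.02 ± 0.31 that became 0.24 without old vehicle 3 and 5. The reader of the PRC2 mark, Eed, stayed between 21.9 and 31.3 CPM in the 12 libraries, and Jarid2, which guides PRC2 to its sites, between 9.11 and 14 CPM.

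Ezh2 belonged to a set of genes that were highest in young vehicle 4 and melatonin-labelled 3, the libraries in which a list of 30 proliferation genes was also highest (mean log2 CPM 6.46 and 6.50, against 3.84 to 5.65 in the other 10). Old vehicle 9 and 5, with the lowest proliferation means of 3.84 and 4.28, held the lowest Ezh2. The set is not large beside all genes. Young vehicle 4 was the highest of its table for 28.8% of the 59 genes, against 22.2% of all genes. For melatonin-labelled 3 the shares were 27.1% and 22.3%. Proliferation genes are classically driven by E2F factors, so the RefSeq promoter windows (GRCm38.p6, 250 bases before to 50 after the start, 300 bases) were searched on both strands for 4 E2F-type octamers, TTTCCCGC, TTTGGCGC, TTTGCCGC and TTTCGCGC, none of which is the reverse complement of another. Of the 59 genes, 50 matched the table, with 66 windows. An octamer was found in 7 of the 66 windows (10.6%), those of Arid1a, Ezh2, Cbx3, Dnmt1, Suz12, Smarcd1 and Suv39h1, against 744 of all 32851 windows (2.26%). Matches and the set did not coincide. Ezh2, Dnmt1 and Suv39h1 were highest in both young vehicle 4 and melatonin-labelled 3 within their tables. Arid1a, Cbx3, Suz12 and Smarcd1 were not. Smarcc1, Suv39h2, Dot1l, Tet2 and Hdac2, among others, were highest in both and are not among the genes with a match. As only 50 of the 59 genes had a window, a gene without a match may not have been searched. Among the 59 genes, Cbx3 had the smallest adjusted p in the melatonin table. The windows of Ezh2 and Suv39h1, members of the proliferation-high set, and then of Cbx3 are shown with the octamer in capitals. They lie at chr6:47594981-47595280 (minus strand), chrX:8074312-8074611 (minus strand) and chr6:51470366-51470665 (plus strand).
Ezh2: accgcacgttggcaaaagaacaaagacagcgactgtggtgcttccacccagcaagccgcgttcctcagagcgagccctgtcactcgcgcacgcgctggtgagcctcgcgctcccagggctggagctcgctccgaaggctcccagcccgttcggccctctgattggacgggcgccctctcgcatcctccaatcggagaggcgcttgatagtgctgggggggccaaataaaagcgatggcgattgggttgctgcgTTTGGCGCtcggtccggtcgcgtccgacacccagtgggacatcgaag
Suv39h1: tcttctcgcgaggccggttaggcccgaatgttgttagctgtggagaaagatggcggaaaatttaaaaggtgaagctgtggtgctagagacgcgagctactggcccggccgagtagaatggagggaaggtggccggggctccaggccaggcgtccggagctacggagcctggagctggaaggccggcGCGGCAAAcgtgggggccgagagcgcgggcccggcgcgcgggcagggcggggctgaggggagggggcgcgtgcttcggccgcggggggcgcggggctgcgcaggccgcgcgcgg
Cbx3: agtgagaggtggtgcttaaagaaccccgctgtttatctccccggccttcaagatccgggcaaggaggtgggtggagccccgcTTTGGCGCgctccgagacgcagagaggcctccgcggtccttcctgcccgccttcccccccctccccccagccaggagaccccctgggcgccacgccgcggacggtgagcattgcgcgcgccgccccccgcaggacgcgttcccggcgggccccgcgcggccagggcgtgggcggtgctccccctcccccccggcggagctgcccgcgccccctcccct
In the Ezh2 window the octamer begins at base 254, just after the start, and in the Cbx3 window at base 83, upstream of it. The Suv39h1 octamer, at base 187, reads as TTTGCCGC on the opposite strand. A match describes the letters of the window only, and no binding was measured. The windows of all genes were not matched to those of the 59 for base composition. Whether E2F factors bear on these levels was not tested.

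PRC1 genes were mostly lower in old libraries, 6 of 7 with a median of -0.30, and the CBX readers differed among themselves. Cbx2, a CBX reader prominent in development, was at 10.2, 13.6 and 17.9 CPM in young and 9.48, 8 and 6.16 in old libraries, so that the groups did not overlap. The difference was -0.80 ± 0.31 (adjusted p = 0.349). The melatonin table gave Cbx2 at 9.54, 8.60 and 7.83 CPM in old vehicle and 8.85, 13.4 and 17.0 in melatonin-labelled libraries, which overlapped, a difference of 0.56 ± 0.30 (adjusted p = 0.435). Cbx6, another CBX reader, did not overlap in either table. It was at 176, 189 and 232 CPM in young against 164, 84.0 and 109 in old libraries (-0.72 ± 0.28, adjusted p = 0.345), and at 170, 89.9 and 104 in old vehicle against 179, 185 and 233 in melatonin-labelled libraries (0.69 ± 0.28, adjusted p = 0.348). All 4 macrophage-rich libraries were the lowest for Cbx6, and without them the differences were -0.27 and 0.22. Cbx7, the reader best known for silencing Cdkn2a, was lowest in the 2 libraries with the highest proliferation means, at 2.98 CPM in young vehicle 4 and 2.62 in melatonin-labelled 3. It was at 7.59 and 8.99 CPM in young vehicle 2 and 5, at 6.31, 8.05 and 12.4 and then 6.60, 8.54 and 13 in old vehicle, and at 9.86 and 9.01 in melatonin-labelled 1 and 5. Its differences of 0.46 ± 0.51 and -0.41 ± 0.57 had adjusted p of 0.701 and 0.756, and became -0.05 and 0.11 without the macrophage-rich libraries. Bmi1, which partners the ubiquitin ligase and represses Cdkn2a, was at 74.0, 115 and 79.2 CPM in young, 78.5, 74.7 and 59.8 and then 73.6, 82.7 and 68.2 in old vehicle, and 75.5, 112 and 85.2 in melatonin-labelled libraries. Bmi1 differed by -0.31 ± 0.21 and 0.25 ± 0.19 with overlapping groups. The ligases Ring1 and Rnf2 ranged over the 12 libraries from 13 to 28.6 and from 37.3 to 59.5 CPM, and Cbx8 from 6.84 to 11.2 CPM.

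All 3 HP1 genes, whose proteins bind methylated lysine 9 and compact heterochromatin, were lower in old libraries (median -0.64) and higher in melatonin-labelled libraries (median 0.64). Cbx3, which encodes HP1 gamma, was at 131, 164 and 156 CPM in young, 118, 97.4 and 70.6 in the old libraries of the age table, 114, 90.4 and 78.0 in those of the melatonin table, and 130, 160 and 160 in melatonin-labelled libraries. Every young and every melatonin-labelled library lay above every old vehicle library. The differences were -0.64 ± 0.22 (1.56-fold, adjusted p = 0.316) and 0.64 ± 0.19 (1.56-fold, adjusted p = 0.286), and without the macrophage-rich libraries they were -0.35 and 0.38. Cbx5, which encodes HP1 alpha, was at 109, 164 and 118 CPM in young against 113, 80.3 and 50.8 in old libraries. In the melatonin table it was at 110, 80.6 and 50.4 CPM in old vehicle against 105, 158 and 133. Old vehicle 2 and 1 overlapped the other groups for Cbx5, and the differences of -0.66 ± 0.32 and 0.68 ± 0.31 (adjusted p = 0.416 and 0.381) shrank to -0.20 and 0.25 without the macrophage-rich libraries. Cbx1, HP1 beta, differed by -0.35 ± 0.22 and 0.35 ± 0.25.

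**Figure D3:**
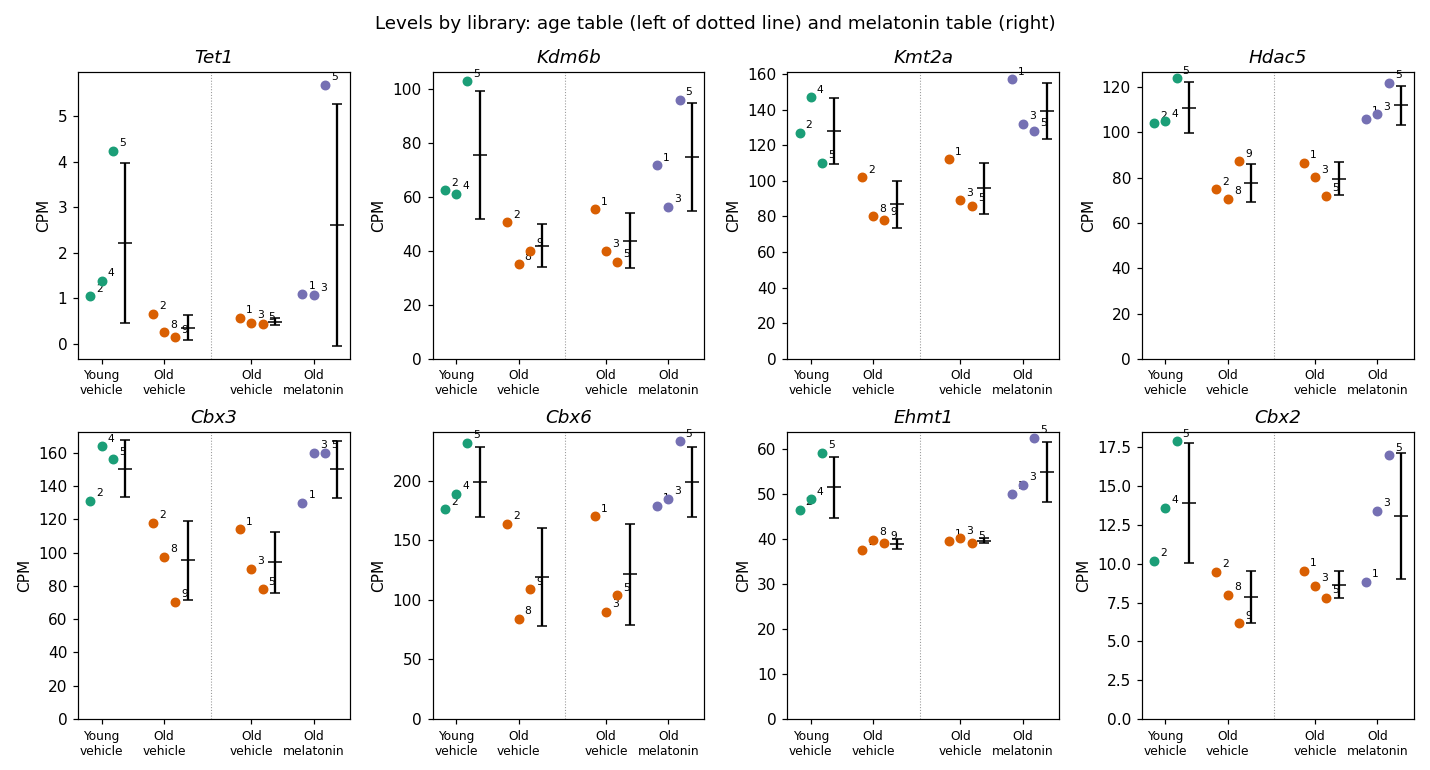
CPM of 8 genes by library, with the age table left of the dotted line and the melatonin table right of it. Points are libraries marked by replicate number, and black marks are means ± SD of 3 libraries. Cbx3, Cbx6, Hdac5, Kdm6b, Kmt2a, Ehmt1 and Tet1 do not overlap between groups in either table, and the highest Tet1 points are young vehicle 5 and melatonin-labelled 5.

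SWI/SNF genes differed little as a class, 11 of 12 being lower in old libraries with a median of -0.20, and 9 of 12 higher in melatonin-labelled libraries with a median of 0.16. Smarcc2, a core scaffold, was the least variable of all 59 genes, with an SD of 0.13 in log2 CPM and a range of 191 to 253 CPM over the 12 libraries. Its paralogue Smarcc1 was instead high in the proliferation-high libraries, at 88.6, 177 and 120 CPM in young, 92.1, 92.7 and 59.6 and then 87.7, 98.7 and 65.6 in old vehicle, and 90.3, 168 and 122 in melatonin-labelled libraries. Smarca4 and Smarca2 encode the alternative ATPases. Smarca4 was at 187, 295 and 178 CPM in young and 187, 203 and 185 in old libraries (-0.17 ± 0.22), and at 196, 216 and 200 in old vehicle and 187, 288 and 180 in melatonin-labelled libraries (0.06 ± 0.22). Smarca2 was lowest in the macrophage-rich pair old vehicle 8 and 3, at 59.4 and 58.5 CPM, against 87.3 to 128 CPM in the other 10 libraries. Its differences were -0.05 ± 0.26 and -0.03 ± 0.31.

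Among the subunits that define the BAF and PBAF forms of SWI/SNF, Arid1b had the tightest groups. It was at 81.2, 86.5 and 84.9 CPM in young against 68.7, 66.9 and 67.1 in old libraries, and at 71.3, 73.9 and 67.5 in old vehicle against 85.9, 87.1 and 86.0 in melatonin-labelled libraries. The groups did not overlap in either table, and the differences were -0.30 ± 0.13 (adjusted p = 0.376) and 0.25 ± 0.13 (adjusted p = 0.432). Without the macrophage-rich libraries the age difference was -0.29. Arid1a, the alternative BAF subunit to Arid1b, was lowest in old vehicle 2 and 1, at 73.7 and 78.7 CPM, and was at 98.3 to 133 CPM in the other 10 libraries. Its differences of -0.22 ± 0.22 and 0.07 ± 0.24 became -0.62 and 0.56 without the macrophage-rich libraries. The PBAF subunit Arid2 was at 48.2, 58.1 and 59.3 CPM in young against 45.9, 44.4 and 35.6 in old libraries (-0.37 ± 0.17, adjusted p = 0.389), and at 48.2, 43.1 and 40.4 in old vehicle against 54.0, 56.7 and 64.2 (0.38 ± 0.15, adjusted p = 0.347). Pbrm1, the polybromo subunit of PBAF, was at 118, 105 and 82.8 CPM in old vehicle against 119, 155 and 152 in melatonin-labelled libraries (0.45 ± 0.19, adjusted p = 0.367), and differed by -0.45 ± 0.24 in the age table. Smarcd1, an accessory subunit, was at 34.1, 46.1 and 47.2 CPM in young and 34.7, 29.9 and 28.6 in old libraries (-0.43 ± 0.19, adjusted p = 0.376), with old vehicle 2 overlapping the young range. Smarcd3, the form used in heart and muscle, was the 1 SWI/SNF gene above 0 in the age table, at 0.12 ± 0.25, and Smarcb1 and Smarce1 differed by -0.16 ± 0.22 and -0.14 ± 0.22.

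Of the 6 writers of lysine 4 methylation, all were lower in old libraries (median -0.20), and Kmt2a stood furthest from 0. Kmt2a, the MLL1 enzyme that keeps HOX genes active, was at 127, 147 and 110 CPM in young, 102, 80.0 and 78.1 in the old libraries of the age table, 112, 89.0 and 86.1 in those of the melatonin table, and 157, 132 and 128 in melatonin-labelled libraries. Groups did not overlap within either table. The differences were -0.54 ± 0.18 (1.45-fold, adjusted p = 0.315) and 0.51 ± 0.18 (1.42-fold, adjusted p = 0.322), and -0.33 and 0.30 without the macrophage-rich libraries. Setd1b, a writer of promoter trimethylation, was at 70.8, 62.2 and 66.9 CPM in young against 53.2, 56.0 and 54.3 in old libraries, a difference of -0.27 ± 0.14. Setd1b overlapped for melatonin, at 59.6, 59.3 and 63.3 CPM in old vehicle and 81.6, 57.3 and 68.9. The enhancer writers Kmt2c and Kmt2d, with Kmt2b and Setd1a, overlapped in both tables and differed by -0.21 to -0.08 for age and by -0.03 to 0.35 for melatonin.

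The 5 histone demethylases were all lower in old (median -0.50) and all higher in melatonin-labelled libraries (median 0.45), and 4 of them were highest in young vehicle 5 and melatonin-labelled 5 within their tables. Kdm6b, which removes the PRC2 mark and is induced by inflammatory and differentiation signals, was at 62.5, 61.3 and 103 CPM in young, 50.6, 35.0 and 40.1 in the old libraries of the age table, 55.4, 39.9 and 36.1 in those of the melatonin table, and 71.8, 56.4 and 96.2 in melatonin-labelled libraries. No group overlapped within a table. The differences were -0.83 ± 0.27 (1.78-fold, adjusted p = 0.315) and 0.75 ± 0.27 (1.68-fold, adjusted p = 0.324), and -0.58 and 0.42 without the macrophage-rich libraries. Kdm5b, a lysine 4 demethylase, was at 105 and 108 CPM in young vehicle 5 and melatonin-labelled 5 and at 41.5 to 64.7 CPM in the other 10 libraries. Its differences were -0.56 ± 0.31 and 0.45 ± 0.30 (adjusted p = 0.456 and 0.522). Kdm1a, also known as LSD1, had its highest values in the same libraries, 83.0 and 75.9 CPM, against 35.0 to 52.0 CPM elsewhere, and did not overlap in the melatonin table (0.55 ± 0.25, adjusted p = 0.383). Kdm5a did not overlap in either table, at -0.27 ± 0.16 and 0.29 ± 0.17, and Kdm3a, a lysine 9 demethylase, overlapped in both.

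The writers of lysine 9 methylation were all below 0 for age (median -0.19) and all above 0 for melatonin (median 0.11), with 1 of the 5, Ehmt1, non-overlapping in both tables. Ehmt1, the partner of G9a, was at 46.4, 48.7 and 59 CPM in young against 37.5, 39.7 and 39.0 in old libraries (-0.39 ± 0.16, adjusted p = 0.365). In the melatonin table it was at 39.4, 40.1 and 39.0 CPM in old vehicle against 50, 52 and 62.4 (0.44 ± 0.16, adjusted p = 0.315). Without the macrophage-rich libraries the Ehmt1 differences were -0.45 and 0.47. Each rests on 1 old vehicle library, 2 or 1, and these are a close pair at r of 0.997. Ehmt2, which encodes G9a itself, stayed between 177 and 252 CPM. Suv39h2 was at 5.18, 11.8 and 2.63 CPM in young, 3.79, 3.27 and 1.62 and then 3.09, 3.79 and 2.34 in old vehicle, and 3.90, 12.1 and 4.03 in melatonin-labelled libraries. Its differences of -1.14 ± 0.63 and 1.07 ± 0.53 (adjusted p = 0.455 and 0.410) came with single high libraries, young vehicle 4 and melatonin-labelled 3. Suv39h1, the paralogue whose window is printed above, followed the same libraries, at 21.5, 48.8 and 23.1 CPM in young, 29.5, 33.8 and 16.9 and then 30.8, 32.7 and 24.4 in old vehicle, and 19.2, 46.4 and 26.6 in melatonin-labelled libraries. Suv39h1 differed by -0.19 ± 0.41 and 0.03 ± 0.33. Setdb1, which silences retroelements, differed by -0.14 ± 0.21 and 0.06 ± 0.20. Dot1l, the lysine 79 methyltransferase, was highest in the same libraries at 92.1 and 86.5 CPM, and differed by -0.37 ± 0.30 and 0.31 ± 0.26.

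**Figure D4:**
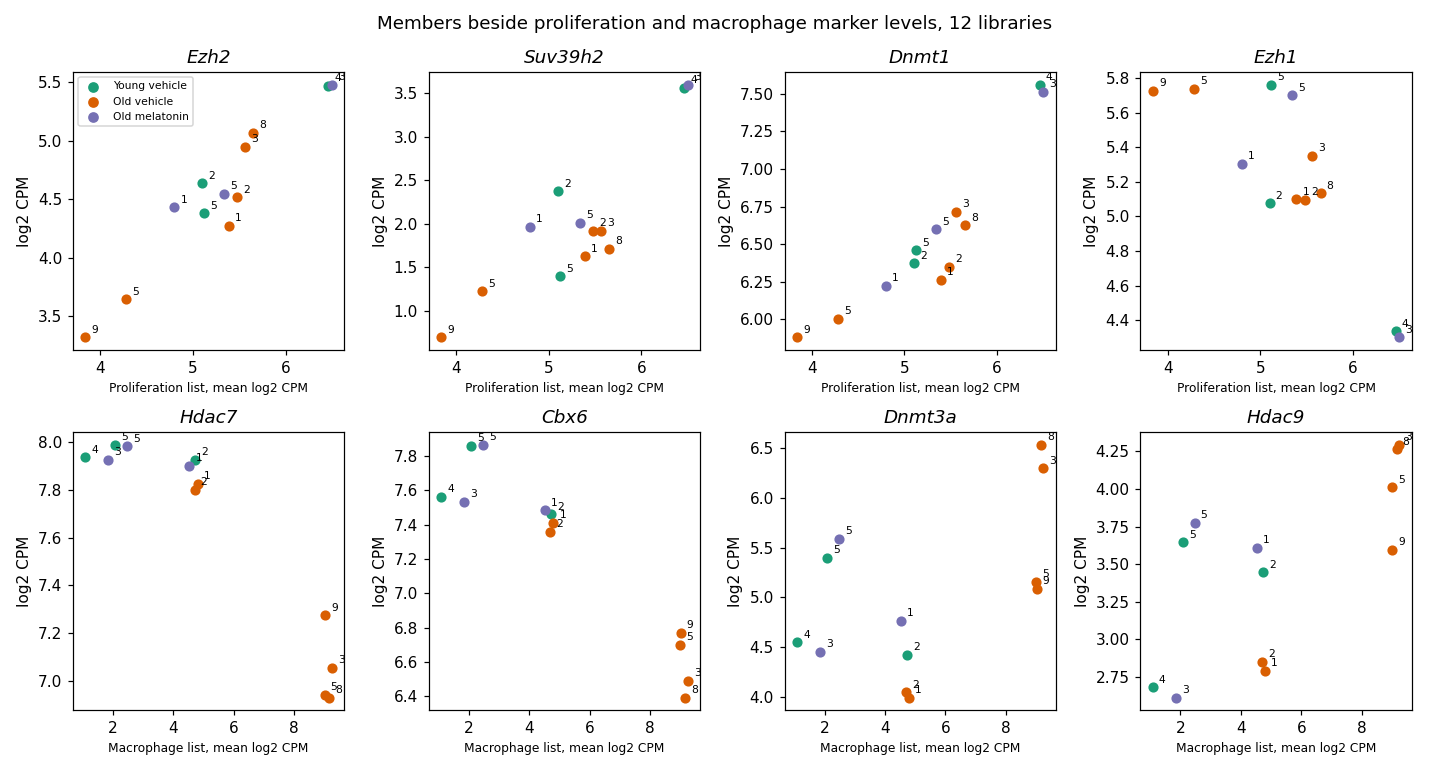
Log2 CPM of 8 genes against the mean log2 CPM of a proliferation list (top) or a macrophage list (bottom), 1 point per library marked by replicate number and coloured by group. Ezh2, Suv39h2 and Dnmt1 are highest and Ezh1 lowest where the proliferation mean is 6.46 and 6.50, and Hdac7 and Cbx6 are lowest in the 4 libraries with a macrophage mean of 9 to 9.24.

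The 3 DNA methyltransferases were high in different libraries. Dnmt1, the maintenance enzyme that copies methylation after replication, was at 82.9, 189 and 88.0 CPM in young, 81.6, 98.8 and 58.9 and then 76.8, 105 and 64.1 in old vehicle, and 74.8, 183 and 96.9 in melatonin-labelled libraries. Young vehicle 4 and melatonin-labelled 3 stood above all others, and the differences were -0.56 ± 0.37 and 0.49 ± 0.36 (adjusted p = 0.521 and 0.556). Dnmt3a, a de novo enzyme, was at 92.7 and 78.6 CPM in old vehicle 8 and 3 and at 15.9 to 48.1 CPM in the other 10 libraries. The age difference of 0.74 ± 0.65 was the highest of the 59, and the melatonin difference of -0.45 ± 0.61 the lowest, yet both changed sign without the macrophage-rich libraries, to -0.81 and 1.02. Dnmt3b, the other de novo enzyme, was scarce, with 20 to 75 counts per library. It was at 1.64, 2.48 and 3.79 CPM in young against 0.948, 1.21 and 1.91 in old libraries (-0.93 ± 0.49, adjusted p = 0.441), and at 1.09, 1.42 and 1.39 in old vehicle against 1.65, 2.76 and 2.37 in melatonin-labelled libraries (0.76 ± 0.37, adjusted p = 0.409).

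Among the TET genes, Tet1 showed the widest differences of all 59 genes at the lowest counts. Tet1, the dioxygenase best known from embryonic stem cells, had 23.42, 30.3 and 84.12 estimated counts in young, 13.5, 5.03 and 2.88 in the old libraries of the age table, 12.15, 9.36 and 9.02 in those of the melatonin table, and 23.88, 23.1 and 113.04 in melatonin-labelled libraries. On the CPM scale these were 1.04, 1.38 and 4.24, then 0.664, 0.251 and 0.143, then 0.570, 0.455 and 0.430, and 1.10, 1.06 and 5.69. All young and melatonin-labelled libraries lay above all old vehicle libraries, and old vehicle 9 was under the 3 counts that a count of 0 allows. Only old vehicle 2 and 1 exceeded the minimum of 10 counts among the old vehicle libraries. Tet1 thus passed the filter only through the young or the melatonin-labelled libraries. Its non-overlap and folds are a description and do not stand as support for a group difference. The differences were -2.62 ± 0.83 (6.13-fold, adjusted p = 0.315) and 2.39 ± 0.81 (5.24-fold, adjusted p = 0.302), and -1.73 and 2.17 without the macrophage-rich libraries. Tet2, the TET gene that is often mutated in blood cells, was at 55.9 and 47.7 CPM in young vehicle 4 and melatonin-labelled 3 and at 13.3 to 23.4 CPM in the other 10, with differences of -0.99 ± 0.47 and 0.69 ± 0.36 (adjusted p = 0.404 and 0.431). Tet3 was lowest in old vehicle 2 and 1, at 26.3 and 26.5 CPM, against 38.9 to 57.0 CPM elsewhere. Its differences of -0.18 ± 0.29 and 0.23 ± 0.29 became -0.83 and 0.86 without the macrophage-rich libraries.

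Histone deacetylases remove acetyl groups. The class I genes, the catalytic core of most corepressors, were lower in old (median -0.36) and higher in melatonin-labelled libraries (median 0.50). Hdac2 was at 92.3, 77.1 and 68.6 CPM in old vehicle against 89.3, 128 and 127 in melatonin-labelled libraries, which overlapped at melatonin-labelled 1 (0.50 ± 0.20, adjusted p = 0.347), and differed by -0.36 ± 0.23 for age. Hdac3, the deacetylase of the NCoR corepressor, was at 50.3 to 53.4 CPM in the 4 macrophage-rich libraries and at 77.2 to 129 CPM in the other 8, and its differences were -0.64 ± 0.28 and 0.64 ± 0.28. Hdac1 differed by -0.19 ± 0.22 and 0.16 ± 0.25.

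Class IIa deacetylases shuttle between nucleus and cytoplasm and repress MEF2 and RUNX2 targets. Hdac5 was at 104, 105 and 124 CPM in young against 74.9, 70.8 and 87.3 in old libraries (-0.49 ± 0.17, 1.41-fold, adjusted p = 0.315). In the melatonin table it was at 86.5, 80.1 and 72.1 CPM in old vehicle against 106, 108 and 122 (0.46 ± 0.15, 1.38-fold, adjusted p = 0.294). Hdac5 groups did not overlap in either table, and its differences were -0.56 and 0.36 without the macrophage-rich libraries. Hdac7 was at 243, 245 and 254 CPM in young and 239, 243 and 253 in melatonin-labelled libraries, at 223 and 227 in old vehicle 2 and 1, and at 122 to 155 in the 4 macrophage-rich libraries. The differences for Hdac7 were -0.55 ± 0.24 and 0.58 ± 0.26 (adjusted p = 0.381 and 0.386), and -0.15 and 0.10 without those libraries. Hdac9 ran the other way. It was at 10.9, 6.42 and 12.5 CPM in young, 7.21, 19.2 and 12.1 and then 6.93, 19.6 and 16.1 in old vehicle, and 12.2, 6.12 and 13.7 in melatonin-labelled libraries, and its differences of 0.39 ± 0.46 and -0.44 ± 0.50 changed sign to -0.46 and 0.61 without the macrophage-rich libraries. Hdac4, which restrains chondrocyte maturation, was at 54.7 and 54.3 CPM in young vehicle 5 and melatonin-labelled 5 and at 19.7 to 33.1 CPM elsewhere (-0.50 ± 0.40 and 0.42 ± 0.36).

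Of the acetyltransferases, Ep300 was close to 0 in both comparisons and Crebbp near the median of the 59 genes. Ep300, a broad coactivator at enhancers, was at 130, 122 and 103 CPM in young, 101, 125 and 111 and then 109, 139 and 135 in old vehicle, and 139, 119 and 114 in melatonin-labelled libraries. Its differences were -0.06 ± 0.17 and -0.07 ± 0.18, with 95% intervals of -0.40 to 0.28 and -0.43 to 0.29. Crebbp, its paralogue, was at 37.8 to 60.3 CPM and differed by -0.33 ± 0.20 and 0.25 ± 0.19.

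Which library was the extreme one was unevenly shared. Within the age table, young vehicle 5 was the highest library for 30 of the 59 genes (50.8%, against 25.9% of all genes) and young vehicle 4 for 17 (28.8%, against 22.2%), while old vehicle 9 was the lowest for 24 (40.7%, against 20.9%). Within the melatonin table, melatonin-labelled 5 was the highest for 26 (44.1%, against 24% of all genes) and melatonin-labelled 3 for 16 (27.1%, near the 22.3% of all genes), and old vehicle 5 was the lowest for 24 (40.7%, against 21.3%). The 59 genes together held 0.424% to 0.509% of counts in young, 0.334% to 0.391% in old vehicle and 0.440% to 0.492% in melatonin-labelled libraries.

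Deposited TPM values, which account for transcript length, allow genes to be set beside each other. Cbx3 had the highest mean over 12 libraries at 167 TPM, followed by Ehmt2 at 123 and Hdac7 and Hdac2 at 112 each, and Tet1 the lowest at 0.235 TPM, below Dnmt3b at 1.06 and Suv39h2 at 2.58. The ratio of Ezh2 to Ezh1 was 1.2, 3.55 and 0.620 in young, 1.07, 1.54 and 0.307 in the old libraries of the age table, 0.898, 1.22 and 0.376 in those of the melatonin table, and 0.879, 3.62 and 0.721 in melatonin-labelled libraries. Ezh2 thus exceeded Ezh1 in young vehicle 2 and 4, old vehicle 2, 8 and 3, and melatonin-labelled 3. Dnmt1 exceeded Dnmt3a in all 12 libraries, from 1.93 times in old vehicle 8 to 16.7 times in melatonin-labelled 3. Hdac7 exceeded Hdac9 by 7.28 to 16.1 times in the 4 macrophage-rich libraries and by 25.3 to 65.6 times in the other 8. Cbx6 exceeded Cbx7 by 4.34 to 5.78 times in the macrophage-rich libraries and by 10.3 to 39.3 times elsewhere, and Smarca4 exceeded Smarca2 by 1.07 to 2.56 times.

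**Figure D5:**
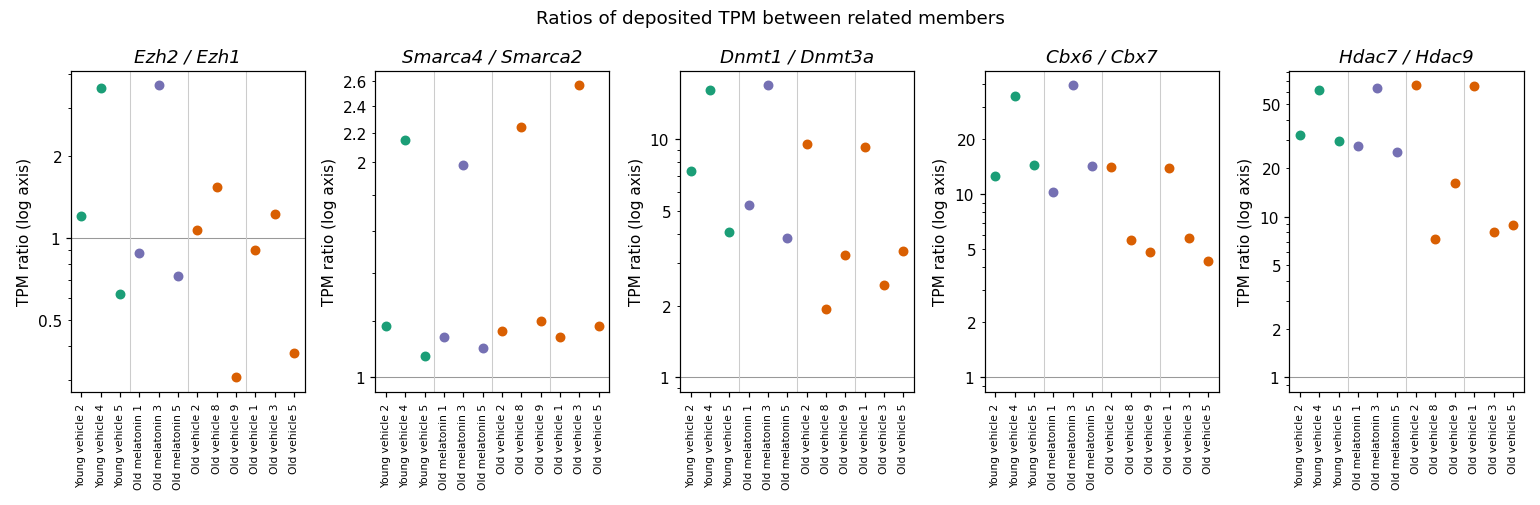
Ratios of deposited TPM between related genes in each library, on log axes, with a grey line at 1. The Ezh2 to Ezh1 ratio runs from 0.307 in old vehicle 9 to 3.62 in melatonin-labelled 3, and the Cbx6 to Cbx7 and Hdac7 to Hdac9 ratios are lowest in old vehicle 3, 5, 8 and 9.

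Set directly beside the young libraries, the melatonin-labelled libraries differed little for these genes. The comparison spans both tables, so table and group cannot be told apart. Differences ran from -0.22 (Dnmt3b) to 0.23 (Tet1) with a median of 0.02, 0 of the 59 genes had an unadjusted p under 0.05 against 0.0674% of 13344 genes tested, split into 0.0225% higher and 0.045% lower. At an adjusted p under 0.05 edgeR called 0%. With 1 library left out, the median ran from -0.07 (without young vehicle 2) and -0.05 (without melatonin-labelled 5) to 0.07 (without melatonin-labelled 1) and 0.11 (without young vehicle 5). Each melatonin-labelled library had its closest counterpart among these young libraries, at r of 0.993 to 0.995, but the fit took all libraries as separate. The SE, p-values and intervals of this comparison therefore reflect the spread between pairs, not the closeness within them. They do not measure how alike the groups are. Precision varied by gene. The 95% interval was -0.30 to 0.28 for Cbx3, -0.24 to 0.26 for Hdac5 and -1.52 to 1.98 for Tet1.

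Other genes of the same pathways were listed too, 107 in 5 lists. In the age comparison 102 were tested, of which 81 were below 0 and 20 above, with a median of -0.20. At an unadjusted p under 0.05, 10 of them (9.8%) were lower, against 4.95% of all genes, and 1 (0.98%) was higher, against 8.81%, and 0 were called. In the melatonin comparison 72 of 102 were above 0 and 28 below, with a median of 0.17. At that level 7 (6.86%) were higher, near the 4.76% of all genes, 3 (2.94%) were lower, against 9.45%, and 0 were called. The lists differed in the melatonin table, where the median was 0.40 for other genes of lysine 9 and DNA methylation, with 16 of 17 above 0, and 0.05 for other deacetylases and acetyltransferases, with 13 above 0 and 9 below. Of other SWI/SNF genes, 10 were above 0 and 6 below, with 0 higher and 2 lower at that level.

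Among other Polycomb genes, the PRC1 subunit Pcgf2 was at 62.2 ± 16.5 CPM in the young group and 35.6 ± 8.28 CPM in the old group (-0.79 ± 0.26), the deubiquitinase cofactor Asxl1 differed by -0.50 ± 0.17 and the PRC1 subunit Phc1 by -0.63 ± 0.23, all 3 with non-overlapping groups and the opposite sign in the melatonin table (0.74 ± 0.29, 0.47 ± 0.15 and 0.61 ± 0.20). Gatad2b, a NuRD subunit, differed by -0.62 ± 0.17 and 0.60 ± 0.19, and the acetyltransferase Kat6a by -0.47 ± 0.16 and 0.36 ± 0.14. Of the MTA subunits of NuRD, Mta1 differed by -0.52 ± 0.23 and 0.40 ± 0.24, while Mta3 ran the other way, at 0.27 ± 0.15 and -0.35 ± 0.14, with non-overlapping groups in both tables. Wdr82, a cofactor of SETD1, differed by -0.46 ± 0.16 and 0.48 ± 0.15. Kdm7a and Jmjd1c, both of the JmjC family, had opposite signs, at 0.90 ± 0.38 and -0.93 ± 0.46 for Kdm7a and at -0.33 ± 0.19 and 0.27 ± 0.16 for Jmjd1c. Zfp57, which protects imprinted methylation, was at 25.3 ± 6.29 CPM in the young group and 10.3 ± 1.2 CPM in the old group (-1.27 ± 0.26), and differed by 1.37 ± 0.35 in the melatonin table. The MBD-family genes Mbd6 and Mbd5 differed by -0.51 ± 0.16 and -0.50 ± 0.21 for age and by 0.46 ± 0.21 and 0.50 ± 0.21 for melatonin. Atf7ip, a partner of SETDB1, differed by -0.55 ± 0.20 and 0.53 ± 0.22. Dnmt3l, the inactive cofactor of the de novo methyltransferases, was at 0.0168 ± 0.0292 CPM in the young group and 1.01 ± 0.696 CPM in the old group. The young level is under the 3-count limit of 0.136 to 0.152 CPM, so no fold is given. Of the subunits of the SWI/SNF forms, Bicral differed by -0.54 ± 0.21 and 0.44 ± 0.25, Brd9 by -0.37 ± 0.16 and 0.44 ± 0.19, and Phf10 by -0.52 ± 0.24 and 0.53 ± 0.23. Bcl7b and Actb, beta-actin, had the opposite signs, at 0.54 ± 0.24 and -0.52 ± 0.20 for Bcl7b and at 0.72 ± 0.31 and -0.82 ± 0.32 for Actb.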

How the data were processed

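Levels were read from 2 tables of 18908 genes, made from Trizol-extracted MSC RNA on the BGISEQ-500 platform, per the labels' protocols. Per the file headers, each gene has estimated counts, FPKM and TPM in every library. The authors deposited expected counts that are partly fractional: 67.7% were whole to within 0.005. Here, deposited FPKM only helped to check the columns, and deposited TPM was used to set genes beside each other. For all 12 libraries, FPKM and TPM fitted best to the counts carrying their own title, over genes with at least 500 counts. Tools and build named in the submitters' processing notes are BWA, Bowtie2, RSEM and mm39, without roles or versions, and the strand setting is not given in the sources used here. In the melatonin table, count headers that spell vehicle as Vel were matched to the vehicle titles with the same number.

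Counts were rounded and filtered with filterByExpr (minimum count 10, minimum total 15). Each comparison was scaled by TMM and put through the quasi-likelihood test of edgeR 4.0.16 in R 4.3.3, with p-values adjusted by Benjamini-Hochberg over all genes tested at 0.05. The SE is the log2 fold change divided by the root of the F statistic, and 95% intervals are 1.96 SE. Library levels are CPM, TMM-scaled across the 12 libraries together, and mean log2 CPM used a prior count of 2. On this scale 3 counts equal 0.136 to 0.152 CPM, which covers counting error only. Alternatives were DESeq2 1.42.0, its size factors in edgeR, no filter, limma-voom (limma 3.58.1), each library left out, the macrophage-rich old vehicle libraries left out, the macrophage mean as a covariate, all 6 old vehicle libraries for age, and a replicate block for melatonin. With 3 against 3 libraries, an exact two-sided permutation p cannot go below 0.1.

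The 59 genes, the lists and the tests were chosen with earlier results of these data known. The text names 26 genes in every case and, as no gene passed the threshold, the 10 of the 59 with the smallest p in each comparison, and up to 3 genes per pathway list by p. Promoter letters come from the RefSeq table of GRCm38.p6, and gene positions of the deposited build were not used.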

Additional observations from a re-analysis of the deposited data

Results flagged for a closer look

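Within the 6 old vehicle libraries, Kdm5a was at 42.8 CPM in old vehicle 9 and at 51.9 to 54.5 CPM in the other 5, so that this library lay far from the rest of its group. The gap to the nearest library was 0.78 of the whole range, above Dixon's 95% critical value for 6 samples. All 59 genes were examined this way in the old vehicle group and 1 stood out. Chance flags about 1 in 20 such groups when libraries are independent, so 1 of 59 is no more than chance would give. The old vehicle libraries form close pairs across the tables, at r of 0.977 to 0.997, so that rate is only a guide. Old vehicle 5, the counterpart of old vehicle 9, was at 52.3 CPM for Kdm5a.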

How the results depend on the processing

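No setting called any of the 59 genes at an adjusted p under 0.05 in any of the comparisons, although DESeq2 called 863 and 895 other genes, the age fit with all 6 old vehicle libraries called 46 and the melatonin fit without old vehicle 1 called 602. The median difference stayed between -0.35 and -0.19 for age and between 0.21 and 0.34 for melatonin. Across the age settings 44 to 55 of the 59 genes were lower in old libraries, against 49.3% to 56% of all genes. With all 6 old vehicle libraries, 22 genes were lower at an unadjusted p under 0.05 in place of 7, where 26% of all genes reached that level in either direction in place of 13.8%, but old vehicle 1, 3 and 5 each resemble a library already in that fit. Without the macrophage-rich libraries a single old vehicle library is assumed to vary like the others. Equal replicate numbers in the melatonin table went with deviations correlated at -0.29, 0.10 and -0.04, so the numbers were not taken to pair the libraries. The fit with the replicate block called 0 genes, gave a median of 0.25 for the 59 and left 2 of them (Kmt2a and Cbx3) at an unadjusted p under 0.05, with 8.34% of all genes. No paired analysis was made for age because the labels give no pairing of young with old libraries.

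Single genes changed sign under some settings, for causes that were not tested. For age, fits without the macrophage-rich libraries turned Ezh1 to -0.08, Cbx7 to -0.05, Smarca2 to 0.29, Dnmt3a to -0.81 and Hdac9 to -0.46. The macrophage covariate turned Ezh1 to -0.24, Suz12 to 0.18, Bmi1 to 0.08, Cbx7 to -0.48, Cbx5 to 0.07, Smarca2 to 0.29, Smarca4 to 0.01, Suv39h1 to 0.47, Dnmt3a to -0.95, Tet2 to 0.03 and Hdac9 to -0.83. All 6 old vehicle libraries gave Suz12 0.01, Smarca2 0.02 and Ep300 0.03. For melatonin, fits without the macrophage-rich libraries turned Ezh1 to 0.10, Suz12 to 0.24, Cbx7 to 0.11, Suv39h1 to -0.02, Dnmt3a to 1.02, Hdac9 to 0.61 and Ep300 to 0.18. The covariate turned Ezh1 to 0.38, Cbx7 to 0.67, Cbx5 to -0.07, Smarca4 to -0.03, Suv39h1 to -0.52, Dnmt3a to 1.46, Hdac7 to -0.01, Hdac9 to 1.12 and Ep300 to 0.37. Limma-voom gave Smarca2 0.03 and Suv39h1 -0.04, and the replicate block gave Smarca2 0.03 and Suv39h1 -0.05.

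Leaving out 1 library at a time changed the sign of these age differences, given as their range: Ezh1 -0.10 to 0.59, Suz12 -0.31 to 0.15, Smarca2 -0.25 to 0.18, Smarca4 -0.33 to 0.08, Suv39h1 -0.40 to 0.27, Dnmt3a -0.17 to 1.15, Tet3 -0.37 to 0.05, Hdac9 -0.02 to 0.67 and Ep300 -0.17 to 0.03. For melatonin the ranges were -0.53 to 0.08 for Ezh1, -0.18 to 0.26 for Suz12, -0.28 to 0.18 for Smarca2, -0.17 to 0.22 for Smarca4, -0.12 to 0.24 for Arid1a, -0.37 to 0.26 for Suv39h1, -0.85 to 0.31 for Dnmt3a, 0 to 0.45 for Tet3 and -0.18 to 0.02 for Ep300. Depth limits Tet1 most, since it had 2.88 to 13.5 counts in the old vehicle libraries.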
